A study of Homo sapiens with 16 samples.

Results

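The genes of NAD synthesis and consumption other than NAMPT were examined in H3K27ac ChIP-seq peak lists of triple-negative breast cancer (TNBC) cells. They were 10 named genes, NAPRT, NMNAT1, NMNAT2, NMNAT3, NADSYN1, QPRT, NNMT, SIRT1, PARP1 and CD38, out of 19962 protein-coding genes of GENCODE 44, and they are defined by name, with no measured value in the rule. In each of the 16 lists the peaks, the covered length and the highest fold enrichment were recorded within 2 kb of the gene's start site and within the gene body extended by 50 kb on either side, which is called the locus below. The start site was that of the MANE Select transcript, the reference transcript agreed for each gene.

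NAD is made from several precursors. QPRT closes the route from tryptophan, NAPRT opens the route from nicotinic acid, and both lead to a dinucleotide that NADSYN1 amidates to NAD, whereas NAMPT opens the salvage route from nicotinamide. The NMNAT enzymes join the mononucleotide to an adenylate in all of these routes, NMNAT1 in the nucleus, NMNAT2 in the cytosol and Golgi and NMNAT3 in mitochondria. NAD is consumed by the deacetylase SIRT1, the DNA damage sensor PARP1 and the ectoenzyme CD38, and NNMT methylates nicotinamide and so removes the salvage precursor.

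MDA-MB-231 and Hs578T are established human TNBC cell lines. Each provided control cells and Fn14 knockout (KO) cells, and in the latter the receptor of the cytokine TWEAK had been targeted with guides in an inducible CRISPR vector, and KO cells were identified by western blotting and Sanger sequencing. All groups, untreated ones included, were starved for 8 h, and treated cells then received TWEAK at 10 ng/ml for 48 h with a renewal after 24 h. Line, genotype and treatment made 8 groups, each with 2 numbered replicates. The study's methods describe the replicates as biological, and p-values measure only the spread between these lists. In bulk chromatin fewer cells carrying the mark and less mark per cell cannot be told apart.

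The 16 lists held 39544 to 47197 peaks, and because they hold no reads the sequencing depth is unknown. Fold enrichment here is the enrichment over background that the peak caller gave to a whole peak. Its median over the peaks of a list was 5.53 to 5.89 in the 4 MDA-MB-231 control lists but 4.998 to 5.21 in the 4 MDA-MB-231 Fn14 KO lists, and 5.18 to 5.47 in Hs578T control and 5.19 to 5.45 in Hs578T Fn14 KO lists. Start-site peaks were called in all 16 lists for 7 of 7 marker genes of mesenchymal TNBC cells, VIM, CD44, EGFR, AXL, CAV1, FOSL1 and TNFRSF12A, and in no list for ESR1, PGR and GATA3. Among further luminal markers, TFF1 had a peak in 16 lists, ERBB2 in 12 and FOXA1 in 2. Among blood and endothelial markers PTPRC, CD3E, CDH5 and VWF had none, LYZ had one in 4 lists and PECAM1 in 6. TNFRSF12A, which encodes Fn14, kept a start-site peak in every Fn14 KO list, with a fold enrichment of 16.2 to 20.9 against 35.1 to 38.2 in MDA-MB-231 control lists and of 19.8 to 22.3 against 32.6 to 35.2 in Hs578T control lists, so that a peak at this gene does not itself report on the edit.

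The sequences that the results turn on are shown first, from the hg38 genome and from RefSeq promoters. The first lines are 300-base stretches of a 2183-bp element in an intron of NADSYN1 (chr11:71487971-71490153), which carried a peak in the 4 TWEAK-treated control lists and in no other list. They are its centre (chr11:71488980-71489279) and the stretch that holds a match to each of the motifs searched (chr11:71489347-71489646), with the matches in capitals. The next line is the centre (chr1:183318318-183318617) of an 897-bp element in an intron of NMNAT2 (chr1:183317997-183318893) that also carried a peak in those 4 lists. All stretches are on the plus strand.
NADSYN1 intronic element, centre: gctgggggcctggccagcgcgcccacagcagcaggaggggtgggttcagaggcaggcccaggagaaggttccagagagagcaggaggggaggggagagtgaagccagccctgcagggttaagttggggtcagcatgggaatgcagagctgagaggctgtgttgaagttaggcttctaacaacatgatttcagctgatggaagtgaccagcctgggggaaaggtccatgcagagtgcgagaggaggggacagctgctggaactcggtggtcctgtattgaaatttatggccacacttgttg
NADSYN1 intronic element, stretch with matches: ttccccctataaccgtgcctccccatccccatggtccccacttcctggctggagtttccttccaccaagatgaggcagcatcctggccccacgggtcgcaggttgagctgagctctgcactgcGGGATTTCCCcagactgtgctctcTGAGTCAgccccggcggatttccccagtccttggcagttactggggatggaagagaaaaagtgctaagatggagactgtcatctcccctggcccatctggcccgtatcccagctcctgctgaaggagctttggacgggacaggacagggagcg
NMNAT2 intronic element, centre: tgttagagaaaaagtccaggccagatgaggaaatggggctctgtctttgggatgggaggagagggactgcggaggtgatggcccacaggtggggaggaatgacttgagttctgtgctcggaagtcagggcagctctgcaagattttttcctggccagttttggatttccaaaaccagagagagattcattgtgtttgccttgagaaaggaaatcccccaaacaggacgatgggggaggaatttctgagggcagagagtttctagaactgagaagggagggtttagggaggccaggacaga

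The motifs were TGANTCA, the letters bound by AP-1, and GGGANNNNCC, letters bound by NF-kB, both searched on both strands, and the capitals do not overlap. The whole NADSYN1 element held 3 AP-1 matches and 2 NF-kB matches. Of 55070 windows of the same length centred on regions called in 2 lists or more, 11.3% held as many AP-1 matches or more and 32.8% as many NF-kB matches or more. The NMNAT2 element held 1 NF-kB match, as 38.7% of windows of its length did at least once, and no AP-1 match, whereas 48.3% of such windows held one or more. These matches describe letters and are not sites of binding.

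Promoters differed in their content of CpG, the dinucleotide that clusters in the promoters of widely expressed genes. RefSeq (GRCh38.p14) sequences from 250 bases before to 50 after the start were found for 8 of 10 genes, that is all but NNMT and NAPRT. SIRT1 (chr10:67884406-67884705) held the most CpG of them and had a strong start-site peak in every list, CD38 (chr4:15778078-15778377) held few and had a peak in some lists, and QPRT (chr16:29678930-29679229) held the fewest and had none. They are printed with each CpG in capitals, on the strand of the gene.
SIRT1 promoter: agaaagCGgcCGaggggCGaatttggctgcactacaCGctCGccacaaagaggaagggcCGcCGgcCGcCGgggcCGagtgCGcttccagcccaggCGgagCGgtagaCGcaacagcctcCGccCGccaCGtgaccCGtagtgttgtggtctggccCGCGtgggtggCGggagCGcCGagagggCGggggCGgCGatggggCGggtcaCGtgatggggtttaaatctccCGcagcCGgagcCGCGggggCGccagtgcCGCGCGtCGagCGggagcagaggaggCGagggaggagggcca
CD38 promoter: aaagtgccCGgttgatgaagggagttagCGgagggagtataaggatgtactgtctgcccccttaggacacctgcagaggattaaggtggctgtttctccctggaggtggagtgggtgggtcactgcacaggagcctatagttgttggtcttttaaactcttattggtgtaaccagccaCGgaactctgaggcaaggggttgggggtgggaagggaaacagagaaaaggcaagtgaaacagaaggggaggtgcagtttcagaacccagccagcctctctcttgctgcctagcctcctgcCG
QPRT promoter: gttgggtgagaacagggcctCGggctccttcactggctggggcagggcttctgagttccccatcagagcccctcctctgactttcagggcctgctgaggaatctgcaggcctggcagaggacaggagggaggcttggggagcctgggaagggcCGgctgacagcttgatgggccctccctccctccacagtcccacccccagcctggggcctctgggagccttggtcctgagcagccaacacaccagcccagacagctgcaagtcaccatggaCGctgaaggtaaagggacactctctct

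SIRT1 held 39 CpG, PARP1 33, NADSYN1 34, NMNAT1 27, NMNAT2 and NMNAT3 18 each, CD38 4 and QPRT 3, against a median of 22 over 15316 promoters. Of these promoters 13.2% held 3 CpG or fewer and 16.2% held 4 or fewer. CpG number alone did not order the genes, since NMNAT3 had as many as NMNAT2 and no start-site peak in any list. No AP-1 match lay in these 8 windows, as in all but 5.75% of promoters, and NF-kB matches lay in those of NMNAT1, QPRT and PARP1, as in 29.2% of promoters.

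At the start sites the genes differed widely in level. NNMT, NMNAT1 and SIRT1 carried the strongest peaks, with lowest, median and highest fold enrichment over the 16 lists of 9.03, 13.4 and 26.5 for NNMT, 9.60, 13.3 and 18.9 for NMNAT1 and 7.81, 12.1 and 13.8 for SIRT1. These 3 genes overlapped in range and are not told apart by level. PARP1 followed at 4.18, 6.51 and 8.19, then NAPRT at 3.95, 4.80 and 5.90 and NADSYN1 at 3.004, 3.40 and 4.52, and each of these ranges overlapped the next. NMNAT2, the cytosolic adenylyl transferase, had a peak in 13 of 16 lists, and CD38 in 9 of 16, neither above 4.29. QPRT and NMNAT3 had no start-site peak in any list. The peak at the NMNAT1 start also spanned the start of the neighbouring gene LZIC, so its level belongs to both.

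**Figure D1:**
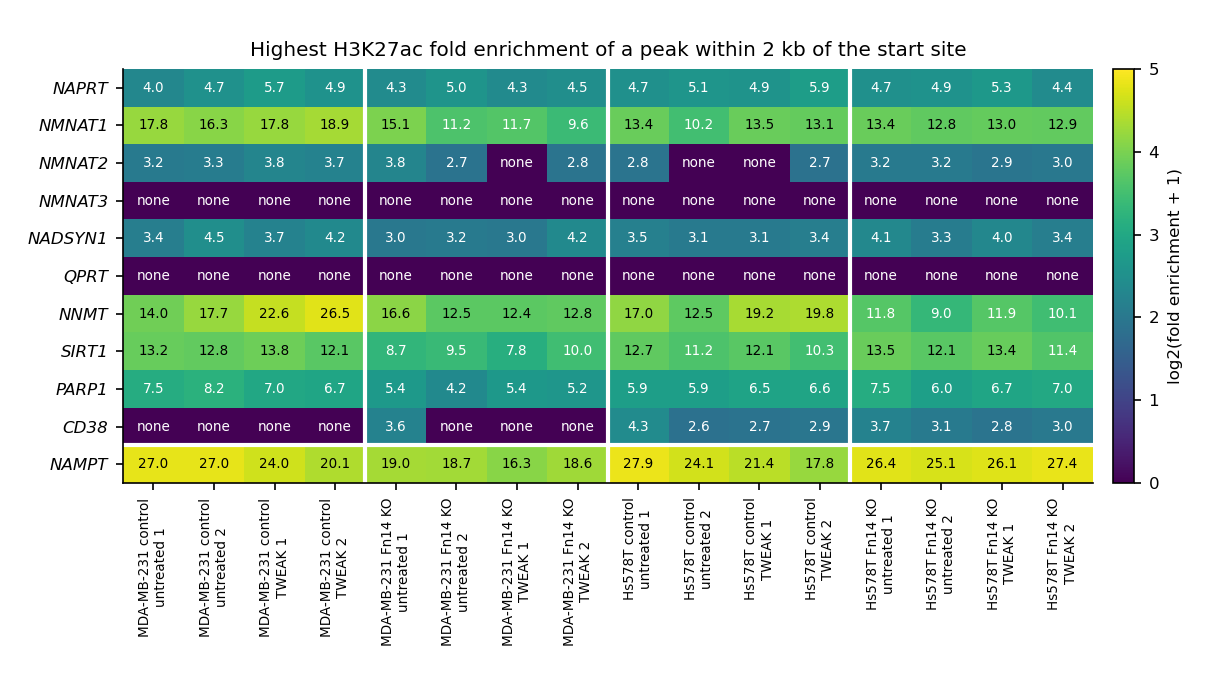
Heat map of the highest fold enrichment of a peak within 2 kb of the start site, one row per gene and one column per list. Cells where no peak was called read none. The last row is NAMPT, drawn for comparison, at 16.3 to 27.9. Among the 10 genes of the set NNMT, NMNAT1 and SIRT1 carry the strongest peaks (up to 26.5, 18.9 and 13.8), and QPRT and NMNAT3 have none in the 16 lists.

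To ask whether TWEAK alters acetylation at these genes and whether the response needs Fn14, log2(fold enrichment + 1) at the start site and log2(covered kb + 1) over the locus were compared with limma, with p-values adjusted over all genes tested. A list with no peak in the window entered at 0. A gene was tested if at least 2 lists had a peak in its window, which 8 of the 10 genes passed at the start site (not QPRT and NMNAT3) and 9 over the locus (not NMNAT3, whose locus was touched by 1 list alone). In control cells TWEAK raised 1 of 8 start-site values, that of NNMT, and lowered none, against 17.5% of 12543 genes called in either direction. Over the locus it raised 1 of 9, NADSYN1, and lowered 1, QPRT, against 17.9% of 17908 genes. These shares lie near those of all genes. The median difference was 0.03 over the 8 genes and 0.03 over all genes at the start site, and -0.09 and -0.05 over the locus, on the log2 scale.

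**Figure D2:**
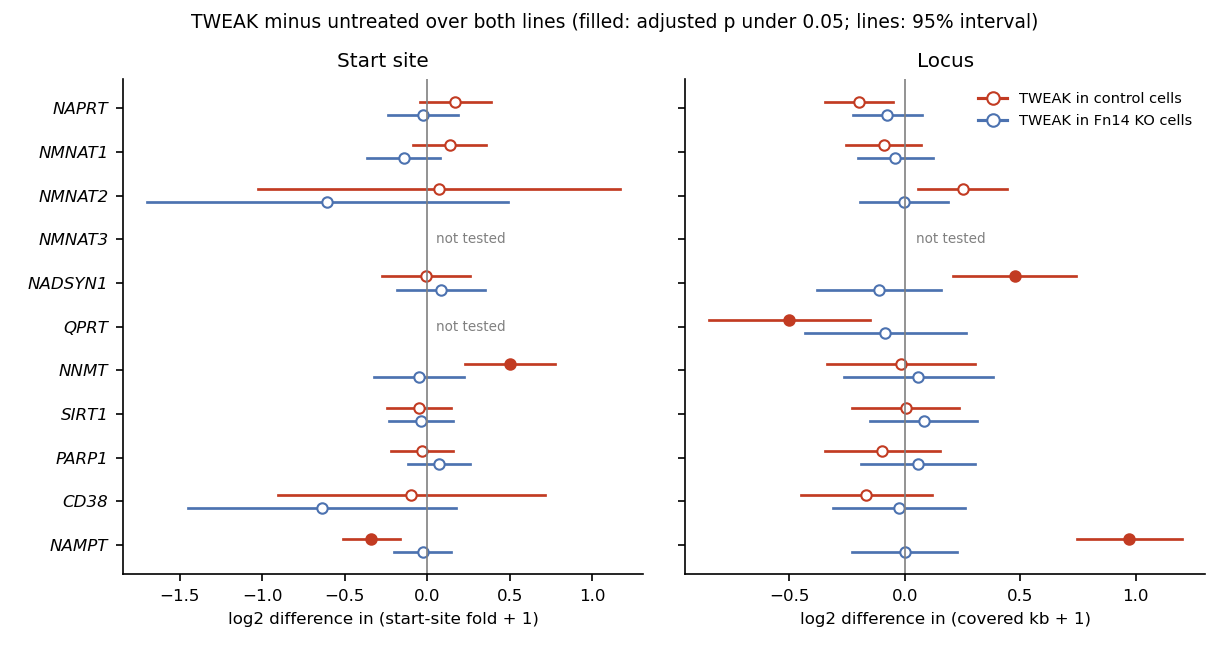
Difference between TWEAK and untreated lists in log2(fold enrichment + 1) at the start site and log2(covered kb + 1) over the locus, for control and Fn14 KO cells, with 95% confidence intervals from limma, and filled points where the adjusted p is under 0.05. In control cells NNMT lies at 0.50 at the start site and NADSYN1 at 0.48 and QPRT at -0.50 over the locus, and NAMPT is drawn for comparison at -0.34 and 0.97.

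NNMT (ENSG00000166741.8, chr11:114257787-114313536, plus strand), the nicotinamide methyltransferase, was the gene whose start-site peak rose. The start of its MANE Select transcript, at position 114296399, lies 38612 bp inside the gene record, and the peak there (chr11:114293211-114297335) touched an exon. In MDA-MB-231 control lists the fold enrichment was 13.995 and 17.7 untreated and 22.6 and 26.5 with TWEAK, or 15.8 ± 2.61 and 24.5 ± 2.78 (mean ± SD, n = 2 each). In Hs578T control lists it was 17.0 and 12.5 untreated and 19.2 and 19.8 with TWEAK, or 14.7 ± 3.19 and 19.5 ± 0.362 (mean ± SD, n = 2 each). Every TWEAK list of control cells lay above every untreated list of its line.

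In Fn14 KO lists the NNMT peak did not follow TWEAK. It stood at 16.6 and 12.5 untreated and 12.4 and 12.8 with TWEAK in MDA-MB-231, and at 11.8 and 9.03 against 11.9 and 10.1 in Hs578T. The groups overlapped in both lines. In control cells of both lines together the difference was 0.50 ± 0.12 (SE) with a 95% interval of 0.23 to 0.77, a 1.42-fold change on the scale of fold enrichment + 1 (limma adjusted p = 0.017). Alone, the lines gave 0.60 in MDA-MB-231 (limma adjusted p = 0.056, with 8.48% of all genes called) and 0.40 in Hs578T (limma adjusted p = 0.24, with 5.32% called), and they differed by -0.21 (limma adjusted p = 1). In Fn14 KO cells it was -0.05 with an interval of -0.32 to 0.22. The effect in control cells exceeded that in Fn14 KO cells by 0.55 ± 0.18 (SE, limma adjusted p = 0.085), so the dependence on Fn14 did not pass the threshold in any of 8 other settings (limma adjusted p from 0.077 to 0.19) and passed only without replicate 2 of untreated MDA-MB-231 Fn14 KO cells (0.65, limma adjusted p = 0.040). The call in control cells was lost without the filter on genes (limma adjusted p = 0.052) and without any of 5 lists, which were MDA-MB-231 untreated replicate 1 (0.42, limma adjusted p = 0.071) and TWEAK replicate 2 (0.45, 0.074) and Hs578T untreated replicate 2 (0.40, 0.071) and TWEAK replicates 1 (0.51, 0.052) and 2 (0.49, 0.057).

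**Figure D3:**
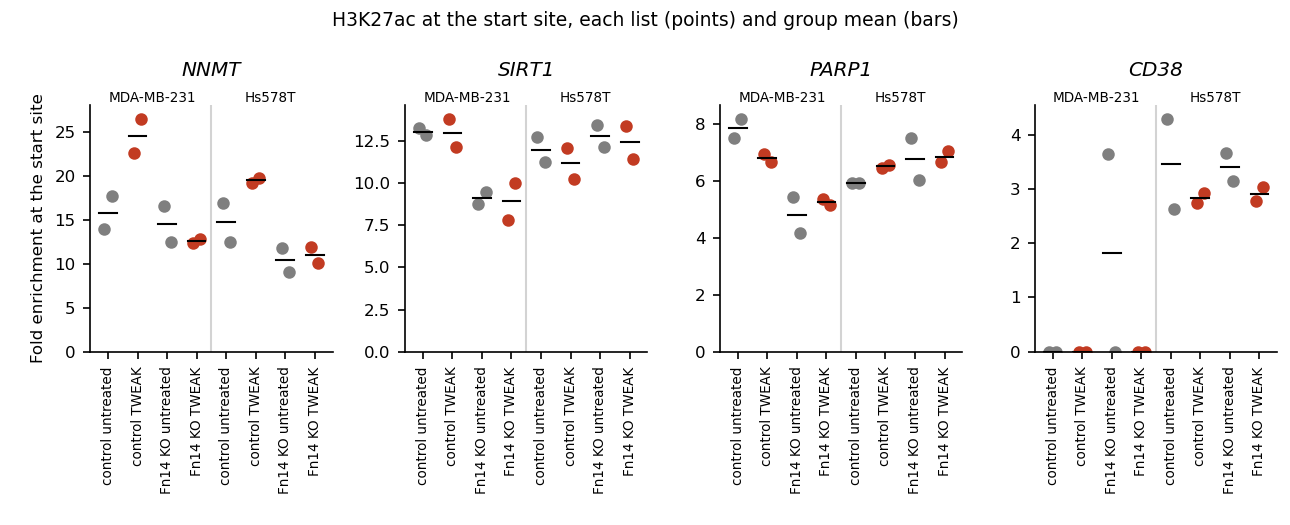
Highest fold enrichment within 2 kb of the start site for NNMT, SIRT1, PARP1 and CD38, one point per list, grouped by line, genotype and treatment, with 0 for a list without a peak. NNMT reaches 19.2 to 26.5 in the 4 TWEAK lists of control cells, PARP1 stays at or below 5.43 in MDA-MB-231 Fn14 KO lists, and CD38 has a peak in all 8 Hs578T lists and 1 MDA-MB-231 list.

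Beyond the start site, the NNMT locus gained a 1739-bp region 50027 bp from the start (chr11:114346426-114348164), between genes, with a fold enrichment of 3.17 and 3.23 in the Hs578T control TWEAK lists. One MDA-MB-231 control list, TWEAK replicate 1, had a peak there at 2.94, and the other 13 lists had none. The covered length of the NNMT locus, 2.31 to 5.09 kb over the 16 lists, did not change detectably with TWEAK in control cells (-0.02, 95% interval -0.34 to 0.31, log2 scale).

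NADSYN1 (ENSG00000172890.13, chr11:71453109-71524107, plus strand), the NAD synthetase, gained covered length over its locus. In MDA-MB-231 control lists the peaks covered 3.78 and 4.24 kb untreated and 5.89 and 5.88 kb with TWEAK. In Hs578T control lists they covered 3.76 and 4.58 kb untreated and 5.26 and 7.39 kb with TWEAK. The treated lists lay above the untreated lists of their line in both. In Fn14 KO lists the values were 2.18 and 1.99 kb against 1.13 and 2.14 kb in MDA-MB-231, and 4.84 and 4.92 kb against 5.42 and 4.61 kb in Hs578T, and the treatments overlapped.

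For NADSYN1 the difference in control cells was 0.48 ± 0.12 (SE) with a 95% interval of 0.21 to 0.74 (limma adjusted p = 0.017), with 0.46 in MDA-MB-231 alone (limma adjusted p = 0.14, 7.09% of all genes called) and 0.49 in Hs578T alone (limma adjusted p = 0.12, 5.44% called). In Fn14 KO cells it was -0.11 with an interval of -0.38 to 0.16. The effects differed between the genotypes by 0.59 ± 0.18 (SE, limma adjusted p = 0.073). This passed the threshold with the values scaled per list (0.61, limma adjusted p = 0.023, against up to 0.38 in the other settings) and without replicate 2 of TWEAK-treated MDA-MB-231 Fn14 KO cells (0.73, limma adjusted p = 0.022). The call in control cells held in 8 of 8 other settings and was lost without MDA-MB-231 control TWEAK replicate 1 (limma adjusted p = 0.056) or 2 (0.055) and without Hs578T control untreated replicate 1 (0.069) or TWEAK replicate 2 (0.081). The locus also holds the start sites of DHCR7 and of KRTAP5-7, KRTAP5-8, KRTAP5-9 and KRTAP5-10.

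The gain at NADSYN1 included the intronic element printed above, 34768 bp from the start. Its fold enrichment was 4.81 and 5.31 in the MDA-MB-231 control TWEAK lists and 4.30 and 4.55 in the Hs578T control TWEAK lists, with peaks 1.80 to 1.99 kb wide. No untreated list and no Fn14 KO list had a peak there. The start-site peak of NADSYN1 did not move with TWEAK, at -0.01 (95% interval -0.28 to 0.26) on the log2 scale. A neighbouring region further into the gene (chr11:71498436-71501188), singled out after its values were seen, had a peak in all 12 lists outside MDA-MB-231 Fn14 KO cells, at 3.20, 3.40, 3.83 and 4.15 in MDA-MB-231 control lists and 4.93 to 6.96 in Hs578T lists, and none in the 4 MDA-MB-231 Fn14 KO lists.

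NMNAT2 (ENSG00000157064.11, chr1:183248237-183418380, minus strand) had the locus with the most regions, 14, and those that changed moved both ways. The intronic element printed above, 99487 bp from the start, had a fold enrichment of 5.29 and 5.43 in MDA-MB-231 control TWEAK lists and 3.93 and 4.19 in Hs578T control TWEAK lists. Unlike the NADSYN1 element it was also called without TWEAK, at 2.80 and 2.69 in the untreated MDA-MB-231 Fn14 KO lists, and it was not called in the treated lists of those cells. Weak peaks were lost in control cells with TWEAK at 3 other positions of the locus. An intronic region 28993 bp from the start (chr1:183388547-183389387) stood at 3.79 and 3.77 without TWEAK in MDA-MB-231 control cells and was not called with it. A region 25760 bp upstream (chr1:183444140-183445083) stood at 2.78 and 3.22 in the same untreated lists and was absent with TWEAK, while all Hs578T lists had it. In Hs578T control cells the loss was at 6629 bp inside the gene (chr1:183410895-183411751), with 3.46 and 2.85 untreated. The covered length was 14.6 and 18.4 kb untreated and 23.5 and 20.2 kb with TWEAK in MDA-MB-231 control lists, and 20.3 and 18.0 against 19.4 and 22.04 kb in Hs578T control lists. The difference of 0.25 (95% interval 0.06 to 0.44) did not pass the threshold (limma adjusted p = 0.069), but did with each list scaled (0.30, limma adjusted p = 0.0013) or cut to the length of the shortest (0.27, limma adjusted p = 0.028), and without MDA-MB-231 control untreated replicate 2 (0.33, 0.024) or either untreated MDA-MB-231 Fn14 KO replicate (0.25, 0.036 and 0.037). At the start site the fold enrichment was 2.70 to 3.84 in the 13 lists with a peak.

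**Figure D4:**
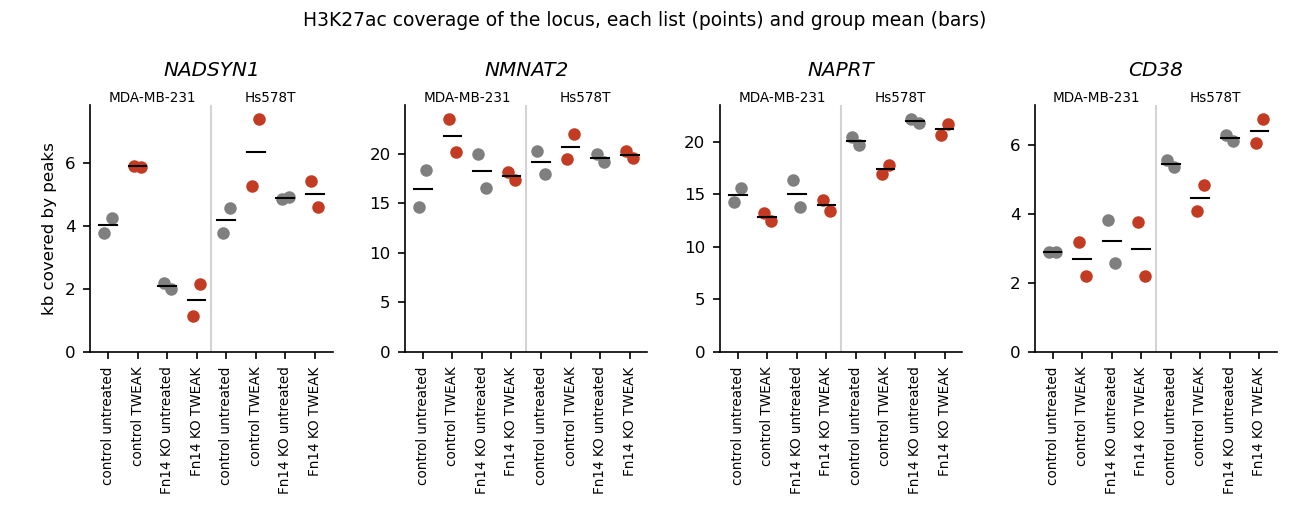
Covered length in kb over the gene body extended by 50 kb for NADSYN1, NMNAT2, NAPRT and CD38, one point per list, grouped by line, genotype and treatment. NADSYN1 reaches 5.26 to 7.39 kb in the 4 TWEAK lists of control cells, and CD38 and NAPRT lie higher in every Hs578T list (from 4.10 and 16.9 kb) than in any MDA-MB-231 list (up to 3.82 and 16.4 kb).

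QPRT (ENSG00000103485.19, chr16:29663279-29698699, plus strand), quinolinate phosphoribosyltransferase of the tryptophan route, was close to unmarked in both lines. Its locus was covered over 0.261, 0.338, 0 and 0.227 kb in MDA-MB-231 control lists, untreated before TWEAK, and over 1.17, 0.698, 0 and 0.263 kb in Hs578T control lists. The Fn14 KO lists held 0.062, 0, 0.067 and 0 kb and 0, 0.768, 0.104 and 0.261 kb in the same order. The fall with TWEAK in control cells, -0.50 ± 0.16 (SE, limma adjusted p = 0.047), thus rests on less than 1.2 kb of weak peaks and on the edge of a region whose greater part lies outside the window. It was lost in 5 of 8 other settings and without any of 12 lists (limma adjusted p up to 0.18), the exceptions being the 4 untreated Fn14 KO lists.

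NAPRT (ENSG00000147813.16, chr8:143574785-143578649, minus strand), which uses nicotinic acid, kept a modest start-site peak in all lists. Its fold enrichment was 3.95 and 4.74 untreated and 5.67 and 4.86 with TWEAK in MDA-MB-231 control lists, and 4.73 and 5.12 against 4.93 and 5.90 in Hs578T control lists. The difference, 0.17 with an interval of -0.04 to 0.38, did not pass the threshold (limma adjusted p = 0.26). The locus holds 7 other start sites, ZC3H3, GSDMD and EEF1D among them, and its covered length gave -0.20 (95% interval -0.35 to -0.05, limma adjusted p = 0.064), which passed in 5 of 8 other settings (limma adjusted p from 0.020 to 0.12 over the 8) and without any of 3 lists, MDA-MB-231 control untreated replicate 1 (0.044) and both untreated MDA-MB-231 Fn14 KO replicates (0.019 each). For NMNAT1 (ENSG00000173614.14, chr1:9943428-9985501, plus strand), the nuclear adenylyl transferase, the start-site values of control cells were 17.8 and 16.3 untreated and 17.8 and 18.9 with TWEAK in MDA-MB-231 and 13.4 and 10.2 against 13.5 and 13.1 in Hs578T, a difference of 0.13 (95% interval -0.08 to 0.35). NMNAT3 (ENSG00000163864.18, chr3:139560180-139678017, minus strand) had neither a start-site peak nor any peak inside the gene.

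Of the enzymes that consume NAD, none changed at the start site with TWEAK in control cells. The differences were -0.05 (95% interval -0.25 to 0.14) for SIRT1 (ENSG00000096717.12, chr10:67884656-67918390, plus strand), -0.03 (-0.22 to 0.15) for PARP1 (ENSG00000143799.14, chr1:226360210-226408154, minus strand) and -0.10 (-0.91 to 0.71) for CD38 (ENSG00000004468.13, chr4:15778275-15853232, plus strand). The intervals for SIRT1 and PARP1 are narrow and that for CD38 is wide, since its peak was present in some lists and absent in others. Close to CD38, a 936-bp region 3570 bp upstream (chr4:15773823-15774758) stood at 3.55 and 2.97 in untreated Hs578T control lists and was called in neither TWEAK list of those cells. It was called in all 4 Hs578T Fn14 KO lists at 3.06 to 4.45, and in 2 MDA-MB-231 Fn14 KO lists at 3.02 and 2.89.

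In Fn14 KO cells no gene of the set passed the test for TWEAK. In Fn14 KO cells limma called 0 of 8 start sites, with 0 at an unadjusted p under 0.05, against 0.0638% of all genes, and 0 of 9 loci, again with 0 unadjusted, against 0.0% of all genes. For the CD38 start site this depended on replicate 2 of untreated MDA-MB-231 Fn14 KO cells, which had no peak and entered at 0. Without that list the group was replicate 1 alone, whose peak at 3.64 was the only one at this site in MDA-MB-231 lists. The difference between the genotypes in the effect of TWEAK was likewise called for 0 genes of the set at the start site, where 7.31% of all genes were called, and for 0 over the locus, where 4.92% were. The unadjusted p was under 0.05 for 1 gene in each case, NNMT and NADSYN1. NAMPT, the gene that opens the salvage route, served as the point of comparison. Its locus was covered over 11.0 and 13.2 kb untreated and 16.4 and 23.8 kb with TWEAK in MDA-MB-231 control lists, and over 11.7 and 11.6 against 30.8 and 28.4 kb in Hs578T control lists. The difference was 0.97 in control cells (limma adjusted p = 5.4e-05), larger than for any of the 9 tested genes of the set, and it exceeded that in Fn14 KO cells by 0.97 (limma adjusted p = 0.0023).

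Fn14 KO and control cells were also compared without TWEAK. Over both lines 0 of 8 start sites passed, with 2 at an unadjusted p under 0.05, while limma called 9.67% of all genes, and 0 of 9 loci passed, with 1 unadjusted, while 0.575% of all genes were called. The lines differed. In untreated MDA-MB-231 cells PARP1 fell from 7.52 and 8.19 in control to 5.43 and 4.18 in Fn14 KO lists, and SIRT1 from 13.2 and 12.9 to 8.73 and 9.45, with no overlap. In untreated Hs578T cells PARP1 stood at 5.95 and 5.95 in control and 7.503 and 6.05 in Fn14 KO lists, and SIRT1 at 12.7 and 11.2 against 13.5 and 12.1.

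The MDA-MB-231 differences were -0.62 ± 0.12 (SE, limma adjusted p = 0.0029) for PARP1 and -0.48 ± 0.13 (SE, limma adjusted p = 0.012) for SIRT1, 2 of 8 genes. They stand beside a shift of all genes in that line, in which 39.3% were called and the median difference was -0.29. In Hs578T, where 0.215% of genes were called and the median was 0.06, the differences were 0.16 (limma adjusted p = 0.79) for PARP1 and 0.09 (limma adjusted p = 0.93) for SIRT1. With each list scaled to its own level, PARP1 remained lower in MDA-MB-231 (-0.50, limma adjusted p = 0.013), whereas SIRT1 no longer passed (-0.35, limma adjusted p = 0.070), nor did it without control untreated replicate 2 (-0.50, limma adjusted p = 0.055). The difference between the lines in this comparison passed for both genes and for 27.7% of all genes. Beyond scaling, the part of the list-wide shift in these values was not tested.

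With TWEAK present, NNMT at the start site and NADSYN1 over the locus were lower in Fn14 KO than in control cells. Without TWEAK neither passed in either line. The larger falls were -0.70 for the NADSYN1 locus in MDA-MB-231 (limma adjusted p = 0.068) and -0.46 for the NNMT start site in Hs578T (limma adjusted p = 0.52). The NNMT start site overlapped in MDA-MB-231, at 13.995 and 17.7 in control and 16.6 and 12.5 in Fn14 KO lists. The NADSYN1 locus of Hs578T covered 3.76 and 4.58 kb in control and 4.84 and 4.92 kb in Fn14 KO lists. The differences with TWEAK use the same TWEAK lists of control cells as the comparison of TWEAK with untreated lists and are not separate evidence. At the start site 2 of 8 genes were lower, against 38.4% of all genes called. NNMT differed by -0.84 ± 0.12 (SE, limma adjusted p = 0.00039), with -0.90 in MDA-MB-231 (limma adjusted p = 0.0015, 50.7% of all genes called) and -0.78 in Hs578T (limma adjusted p = 0.017, 9.52% called). The Hs578T value did not pass without the filter (limma adjusted p = 0.055) or without any of the 4 TWEAK lists of that line (limma adjusted p from 0.063 to 0.12). NMNAT1 differed by -0.39 (limma adjusted p = 0.011), from 17.8 and 18.9 in control to 11.7 and 9.60 in Fn14 KO lists of MDA-MB-231 and from 13.5 and 13.1 to 13.04 and 12.9 in Hs578T. Scaled per list it did not pass (-0.26, limma adjusted p = 0.071). In MDA-MB-231 alone 4 of 8 start sites were lower, with a median of -0.35 over all genes, NNMT, NMNAT1 (-0.74, limma adjusted p = 0.0013), SIRT1 (-0.50, limma adjusted p = 0.0062) and PARP1 (-0.32, limma adjusted p = 0.046). Scaled per list, SIRT1 (-0.31, limma adjusted p = 0.092) and PARP1 (-0.14, limma adjusted p = 0.40) did not pass. SIRT1 was also lost without TWEAK replicate 1 of control (0.056) or of Fn14 KO cells (0.063) of that line, and PARP1 without any of 10 lists (0.057 to 0.16), the exceptions being the untreated MDA-MB-231 lists and the untreated Hs578T Fn14 KO lists. Over the locus NADSYN1 was the 1 gene of 9 called, at -0.84 ± 0.12 (SE, limma adjusted p = 0.00043) against 18.6% of all genes, with -1.41 in MDA-MB-231 (limma adjusted p = 0.00033, 9.85% called) and -0.27 in Hs578T (limma adjusted p = 0.34, 13.8% called).

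CD38 separated the lines most. Its start-site peak was called in all 8 Hs578T lists, at 4.29, 2.64, 2.74 and 2.92 in control and 3.66, 3.15, 2.79 and 3.04 in Fn14 KO lists, and in 1 of 8 MDA-MB-231 lists, untreated Fn14 KO replicate 1 at 3.64. The peak began 28 bp from the start. The locus was covered over 4.10 to 6.76 kb in Hs578T and 2.19 to 3.82 kb in MDA-MB-231, with no overlap. This window also overlaps the body of BST1. A 4018-bp region in it, with a peak in all 16 lists, is centred 115.5 kb from the CD38 start, beyond the gene. Its nearest start is that of FGFBP1, so the covered length does not belong to CD38 alone. CD38 passed the filter through its Hs578T lists, as 1 MDA-MB-231 list alone had a peak, so its start-site p-value is not separate support. Over all lists the start-site value was higher in Hs578T by 1.77 ± 0.26 (SE, limma adjusted p = 0.00030), a size that follows from setting lists without a peak to 0, so that no fold is given. With peaks at a −log10 q-value of 2 or more, or with each list cut to the length of the shortest, it was 0.56 (limma adjusted p = 0.26 in both). The locus difference of 0.75 (limma adjusted p = 4.6e-05) held in all settings run.

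At the start site 2 of 8 genes differed between the lines, NNMT and, with the limit given above, CD38, against 41.4% of all genes. NNMT was lower in Hs578T by -0.26 ± 0.09 (SE, limma adjusted p = 0.032), a call that was lost without the filter (limma adjusted p = 0.081) and held only without MDA-MB-231 control untreated or TWEAK replicate 1, MDA-MB-231 Fn14 KO untreated replicate 2, Hs578T control untreated replicate 1, or Hs578T Fn14 KO untreated or TWEAK replicate 1. Over the locus 4 of 9 genes were higher in Hs578T, against 50.1% of all genes and a median of 0.16 over them. Beside CD38 they were NADSYN1 (0.57, limma adjusted p = 0.00023), NAPRT (0.48, limma adjusted p = 1.0e-05) and NNMT (0.28, limma adjusted p = 0.042). NAPRT covered 16.9 to 22.2 kb in Hs578T lists and 12.4 to 16.4 kb in MDA-MB-231 lists, without overlap. NNMT was not called with each list scaled (0.11, limma adjusted p = 0.41), and leaving out 1 list kept its call only for MDA-MB-231 control untreated replicate 2 or TWEAK replicate 1 and for Hs578T control replicate 2 of either treatment.

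Merging the peaks of all lists and keeping regions seen in 2 lists or more left 55219 regions, of which 51 lay in the 10 loci, and 31 of the 51 (60.8%) had a peak in all 16 lists, as did 51.3% of all regions. For each line and genotype, a gained region had a peak with TWEAK in both replicates but untreated in neither, and a lost region the opposite. In MDA-MB-231 control cells 2 of the 51 were gained and 2 lost, where 5.58% and 4.49% of all regions were, and in Hs578T control cells 3 and 2, where 5.09% and 4.65% were. The NADSYN1 and NMNAT2 elements were gained in both lines. Fn14 KO cells gained 0 in either line (0.321% of all regions for MDA-MB-231, 1.05% for Hs578T) and lost 1 in each (1.35% and 0.829%). The shares of the set lie near those of all regions in each case. NAPRT, NMNAT1, SIRT1, PARP1, QPRT and NMNAT3 held no region gained or lost in control cells.

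The other NAD genes, a list of 42 that includes NAMPT, give the setting. Their calls were not repeated under the other settings or with lists left out. In control cells TWEAK raised 8 and lowered 3 of the 32 tested at the start site, where 17.5% of all genes were called, with a median of 0.09 against 0.03 for all genes. PNP, which splits nicotinamide riboside, rose by 0.46 (limma adjusted p = 0.0070), the deacetylases SIRT3, SIRT7 and SIRT6 by 0.41, 0.36 and 0.32 (limma adjusted p = 0.0048, 0.020 and 0.045), and PARP4 by 0.32 (limma adjusted p = 0.0050). The solute carrier SLC12A8 is counted among the 8, but it had a start-site peak in 3 of 16 lists alone, at up to 3.81, so that it passed the filter through those lists and its difference of 1.67 follows from setting the others to 0. NAMPT at -0.34 (limma adjusted p = 0.013) and PARP16 at -0.31 (limma adjusted p = 0.018) fell, NAMPT at the start site while its locus gained. The NAMPT peak filled the 4001-bp window in every TWEAK list of control cells and 3899 to 4001 bp of it in the untreated ones. Its fold enrichment is that of the whole peak, which can reach beyond the window. Whether peak width changed this value was not tested, so the fall need not be one at the start site itself. Over the locus 6 of 42 rose and 1 fell, a share near the 17.9% of all genes called. Those that rose were NAMPT, PARP12 (0.70, limma adjusted p = 0.00016), the transhydrogenase NNT (0.52, limma adjusted p = 0.00049) and the tryptophan-route enzymes KMO (0.27, limma adjusted p = 0.033), IDO1 and IDO2 (0.38 each, limma adjusted p = 0.037). The windows of IDO1 and IDO2 held the same values, 1 peak per list covering 0.623 to 1.65 kb, so these 2 calls are not separate. Neither gene had a start-site peak in any list. The mitochondrial NAD carrier SLC25A51 fell (-0.57, limma adjusted p = 0.014).

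In Fn14 KO cells TWEAK changed 0 of 32 start sites and 0 of 42 loci of that list by limma. The effect in control cells exceeded that in Fn14 KO cells for PNP (0.66, limma adjusted p = 0.014) and PARP4 (0.36, limma adjusted p = 0.032) and fell below it for PARP16 (-0.42, limma adjusted p = 0.041) at the start site. Over the locus it was larger for NAMPT, PARP12 (0.67, limma adjusted p = 0.0073) and NNT (0.54, limma adjusted p = 0.011). Without TWEAK 3 start sites were lower in Fn14 KO cells, where 9.67% of all genes were called, SLC25A51 (-0.46, limma adjusted p = 0.0027), PARP16 (-0.28, limma adjusted p = 0.044) and TIPARP (-0.25, limma adjusted p = 0.042). Between the lines 8 start sites were higher and 8 lower in Hs578T, led by PARP3 (0.54, limma adjusted p = 8.0e-06) and PARP8 (-0.47, limma adjusted p = 0.00018), and 23 loci were higher and 1, TIPARP (-0.56, limma adjusted p = 0.0061), lower. Of all genes 41.4% of start sites and 50.1% of loci were called in this comparison.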

How the data were processed

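H3K27ac ChIP-seq peak lists of 16 samples were used, 1 per sample, each called on that sample alone. Per the study's methods, the authors used FastQC for read quality, Trimmomatic for trimming, Bowtie2 for alignment to hg38 and MACS2 for peaks after subtraction of the input, and left out blacklisted regions. Versions were not given in the sources used here, and broad calling was read from the column layout. The deposited columns are a score, the fold enrichment as a ratio to background over the whole peak, and the −log10 p-value and −log10 q-value, all from the authors' peak caller. Peaks near the calling threshold can be present in one list and missing in another.

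The members and lists were chosen with earlier results of these data known. The named genes were the 10 members, NAMPT, called genes of the pathway list (at most 8 per comparison, by size), regions gained or lost in control cells, and the 3 genes most like the member with the largest locus difference. Models with the 8 groups as terms were fitted over all tested genes with limma 3.58.1 in R 4.3.3 (pseudocount 1, peaks in at least 2 lists, Benjamini-Hochberg threshold 0.05) and checked on simulated data. Python 3.11.15 with pandas 2.3.3 and numpy 2.4.6 measured overlaps, counted from 1 bp, and matplotlib 3.10.9 drew figures. The alternatives were a −log10 q-value of 2 or more, lists trimmed to 39544 peaks, peak midpoints, narrower windows (1 and 20 kb), the start of the gene record, a pseudocount of 0.1, values scaled per list, no filter, 500-bp bins, a replicate block and each list left out. DiffBind, which needs reads, was not run. Of the marker lists, 2 genes are not reported here.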

Additional observations from a re-analysis of the deposited data

Results flagged for a closer look

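The difference between Fn14 KO and control cells without TWEAK was not the same in the lines for 2 start sites, among 5 such differences tested in each of 2 windows. The fall lay in MDA-MB-231, so the signed value of Fn14 KO minus control was higher in Hs578T. For PARP1 it was higher by 0.77 ± 0.17 on the log2 scale (SE, limma adjusted p = 0.0090). Its fold enrichment fell from 7.85 ± 0.472 to 4.80 ± 0.883 in MDA-MB-231 and stood at 5.95 ± 0.0014 and 6.77 ± 1.03 in Hs578T (mean ± SD, n = 2 each). For SIRT1 the signed value was higher in Hs578T by 0.57 ± 0.18 (SE, limma adjusted p = 0.035). The SIRT1 means were 13.05 ± 0.279 in control and 9.09 ± 0.508 in Fn14 KO lists of MDA-MB-231, and 11.96 ± 1.056 and 12.8 ± 0.926 in those of Hs578T. The same difference was called for 27.7% of all genes, with a median of 0.36. Scaled per list it was 0.63 for PARP1 (limma adjusted p = 0.032) and 0.42 for SIRT1 (limma adjusted p = 0.15). The PARP1 call held without each list in turn. The SIRT1 call was lost without the filter (limma adjusted p = 0.069) and without any of 6 lists, MDA-MB-231 control untreated replicates 1 (0.068) and 2 (0.082), MDA-MB-231 Fn14 KO untreated replicates 1 (0.062) and 2 (0.069), Hs578T control untreated replicate 2 (0.12) and Hs578T Fn14 KO untreated replicate 1 (0.12).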

How the results depend on the processing

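Calls on a handful of genes moved with the processing. Of the gene differences followed, 0 changed sign, but they were chosen for a small adjusted p with all lists. Counts of genes or regions cannot change sign. With 0 to 2 of 8 or 9 genes called, a change of 1 gene is a large share. At the start site TWEAK in control cells called 1 gene, but 0 at the start of the gene record (where the NNMT peak lies outside the window), 0 without the filter, and 0 to 1 with each list left out. Leaving lists out gave 0 to 1 in Fn14 KO cells, 0 to 2 for the difference between genotypes and 0 to 1 for Fn14 KO against control, each 0 with all lists. The lines differed at 2 start sites, but at 1 with the q-value limit, the gene record or no filter and at 1 to 3 with a list left out. Over the locus TWEAK in control cells called 2 genes, 4 with trimmed or scaled lists, 1 with peak midpoints or the pseudocount of 0.1, and 0 to 4 with a list left out. The genotype difference called 0 genes, but 1 trimmed, 2 scaled and 0 to 1 with a list left out, and Fn14 KO against control 0, but 1 with the q-value limit or trimmed. Gained or lost regions numbered 4 in MDA-MB-231 control cells (20 in 500-bp bins, 5 to 6 with a list left out), 5 in Hs578T control cells (3 with the q-value limit or trimmed, 23 in bins, 5 to 8), 1 in MDA-MB-231 Fn14 KO cells (0, 6 in bins, 1 to 3) and 1 in Hs578T Fn14 KO cells (3 with the q-value limit, 2 trimmed, 7 in bins, 0 with narrower windows, 1 to 4). The cause was not tested, beyond fewer lists or genes entering. Untreated and TWEAK lists of the same replicate number, within a line and genotype, did not deviate together (r from -0.004 to 0.106). Lists of different genotypes or lines were not compared in this way, so whether the numbers pair samples is not settled. A replicate block gave 1 locus call in place of 2 for TWEAK in control cells. Depth is unknown, so a missing peak limits nothing below the calling threshold.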

Other observations

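QPRT had the largest locus difference with TWEAK in control cells by absolute size. The genes whose covered length over the locus followed it most closely over the 16 lists were TRPM2 (Pearson r = 0.935), CFAP410 (0.889) and ABCC10 (0.82), a description in which all points share the same libraries and most QPRT values lie at or near 0.

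The SIRT1 locus held a region far stronger than its start-site peak, between genes 11118 bp from the start of DNAJC12 (chr10:67849306-67850944), with a peak in all 16 lists and a fold enrichment of up to 31.1. PARP1 shared its locus edge with the start of LIN9, where a region (chr1:226308346-226310973) had a peak in all 16 lists at up to 10.1. In QPRT, a weak region 30939 bp away (chr16:29710119-29710895) was called in 8 lists, never in MDA-MB-231 Fn14 KO cells, and at most at 4.29. The only region of the NMNAT3 locus lay at its edge (chr3:139727891-139729068), and 7 of 8 Hs578T lists and no MDA-MB-231 list had it, though in 1 list alone did its peak reach into the window.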
